A study of Mus musculus with 15 samples.

Results

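The genes described here are homeobox transcription factors that lie outside the Hox clusters. The set was a named list of 47 genes of this kind that are typical Polycomb targets, and its members were found as every non-control probe whose gene name in the scanner files matched the list. Of the 47 genes, 35 had a probe well above background on at least 3 arrays of 1 group, among 21184 genes that passed the same filter. The other 12 were not analysed further: Otx1, Otp, Six3, Six6, Nkx2-1, Lhx9 and En1 of the brain factors, Evx2 of the spinal cord factors, Dlx1 and Dlx6 of the pharyngeal arch factors, and Meox2 and Shox2 of the mesoderm and limb factors. Because a probe could pass through 1 group alone, the 35 genes are those that were detectable somewhere in the series, and not all members.

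Homeobox genes encode proteins that bind DNA, often at AT-rich sites, through a domain called the homeodomain, and many of them set regional or cell identity in the embryo. In embryonic stem (ES) cells most of these genes are kept low by Polycomb complexes, which modify histones around their CpG-rich start sites. Cbx7 is a chromodomain protein that reads the histone mark left by Polycomb repressive complex 2 and is the main Cbx subunit of canonical Polycomb repressive complex 1 in ES cells.

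Expression was measured on 15 single-colour Agilent arrays hybridised with Cy3-labelled total RNA of mouse cells. The groups were control ES cells (3 arrays), ES cells labelled as depleted of Cbx7 with a construct named KD33 (4 arrays), control embryoid bodies named EB9 (4 arrays) and EB9 with the same depletion label (4 arrays). The KD33 groups are called knockdown below after their labels. Embryoid bodies are aggregates in which ES cells differentiate into mixed cell types. Controls have no treatment in their sample labels, while the series text calls the ES control shCtr, a control hairpin. All arrays are named biological replicates, but the ES cell line and the meaning of the 9 in EB9 are not given in the sources used here. The depletion rests on 1 construct, so an effect of Cbx7 loss and an effect of that construct cannot be told apart. Every group always took the same place on its slides, and that place cannot be told apart from the group either. P-values here measure the spread between arrays.

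A level below is the log2 processed signal minus the 75th percentile of the same array, so that 0 is the level of that percentile and a difference of 1 is 2-fold. The threshold for a call was an adjusted p of 0.05 in limma's moderated test, with p-values adjusted over all 21184 genes. Levels of different genes come from different probes and are not compared with each other. Between 62.5% and 69.0% of features were well above background on 14 of the arrays and 75.4% on EB9 control 2. On that array 1404 genes that were at least 3 log2 units lower in the other 3 EB9 controls than in control ES cells lay a median of 0.59 above their mean on those 3 arrays. It was the highest of the 4 EB9 controls for 24 of the 35 homeobox genes, and for 10 of the 11 that were lower in control EB9 than in control ES cells. Results that rest on it are given with and without it. Markers of pluripotent cells had a summed level of 297.7 to 360.2 times the 75th percentile on ES arrays and of 17.1 to 24.8 on EB9 arrays, with all 9 markers lower in EB9. Those of fibroblasts had sums of 4.95 to 5.78 in ES cells and 101.4 to 164.8 in EB9, and those of surface ectoderm sums of 11.8 to 16.0 and 139.4 to 204.1. A sum mostly follows its brightest markers. From control ES cells to control EB9, 9 of 10 fibroblast markers rose and 1 fell. Of 6 surface ectoderm markers, 3 rose, 1 fell and 2 did not pass.

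Cbx7, the depleted gene, had 2 probes, of which 1 was near the limit of detection. That probe, at chr15:79746240-79746299 (build mm9), could be told from background on all 3 control ES arrays, and on 2 of the 4 in each of the remaining groups. Its level was -6.30, -3.14 and -3.04 in control ES cells and -7.85, -4.44, -4.61 and -7.37 in knockdown ES cells. The groups overlapped, because arrays of slides 1 and 4 read lower than those of slides 2 and 3. The change was -1.91 (SE 1.23, adjusted p = 0.256) without a slide term and -1.41 (SE 0.17, adjusted p = 1.00e-04) with the slide as a block. Within slides 1, 2 and 3 the knockdown array lay lower by -1.56, -1.30 and -1.57. In EB9 the change of that probe was -0.27 (adjusted p = 0.920), and -0.27 (adjusted p = 0.221) with the slide as a block. The other Cbx7 probe, at chr15:79748605-79748664, was well above background on every array. It did not pass in ES cells (-0.13, adjusted p = 0.733) or in EB9 (-0.16, adjusted p = 0.708). With the slide as a block it did not pass either, at -0.03 (adjusted p = 0.868) in ES cells and -0.16 (adjusted p = 0.360) in EB9. A lower Cbx7 level thus passed in ES cells at 1 of 2 probes, with the slide as a block, and in EB9 at neither, so that knockdown EB9 stands for the arrays labelled so.

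The start sites of these genes are shown because CpG density is the sequence feature that Polycomb targets are known for. RefSeq promoter windows (build GRCm38.p6, 250 bases before to 50 bases after a start) were matched by symbol for 32 of the 47 genes, in 38 windows. The 250 bases before the start are printed 5′ to 3′ for 4 members that rose in knockdown ES cells and for Otx2, the member that fell most there. The 4 are not the 4 largest rises: Six2 is shown (1.02) and Tlx3 is not (1.11). Capitals mark CpG dinucleotides. The stretches are chr9:55540899-55541148 on the plus strand, chr13:48662786-48663035 on the plus strand, chr2:71546755-71547004 on the minus strand, chr17:85688255-85688504 on the minus strand and chr14:48665110-48665359 on the minus strand, the last being 1 of 4 windows of that gene.
Isl2: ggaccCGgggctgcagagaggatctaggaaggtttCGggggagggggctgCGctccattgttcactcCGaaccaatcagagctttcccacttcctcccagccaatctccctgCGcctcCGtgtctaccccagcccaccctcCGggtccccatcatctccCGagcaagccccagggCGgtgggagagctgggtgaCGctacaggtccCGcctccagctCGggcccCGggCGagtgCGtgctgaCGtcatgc
Barx1: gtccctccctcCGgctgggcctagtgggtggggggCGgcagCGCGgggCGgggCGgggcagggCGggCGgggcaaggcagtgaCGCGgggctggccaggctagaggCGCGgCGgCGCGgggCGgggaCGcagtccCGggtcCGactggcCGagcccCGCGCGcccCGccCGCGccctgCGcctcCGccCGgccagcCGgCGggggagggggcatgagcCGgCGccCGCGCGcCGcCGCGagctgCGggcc
Dlx2: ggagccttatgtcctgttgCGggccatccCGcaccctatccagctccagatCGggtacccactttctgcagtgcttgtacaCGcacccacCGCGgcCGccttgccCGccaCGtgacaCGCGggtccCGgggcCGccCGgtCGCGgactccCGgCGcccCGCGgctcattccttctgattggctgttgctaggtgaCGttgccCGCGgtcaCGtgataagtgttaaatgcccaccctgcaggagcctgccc
Six2: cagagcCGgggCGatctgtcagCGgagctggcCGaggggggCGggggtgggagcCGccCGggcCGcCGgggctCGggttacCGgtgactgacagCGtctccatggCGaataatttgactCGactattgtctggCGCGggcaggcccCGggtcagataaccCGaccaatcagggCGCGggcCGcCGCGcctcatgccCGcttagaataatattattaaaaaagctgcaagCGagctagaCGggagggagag
Otx2: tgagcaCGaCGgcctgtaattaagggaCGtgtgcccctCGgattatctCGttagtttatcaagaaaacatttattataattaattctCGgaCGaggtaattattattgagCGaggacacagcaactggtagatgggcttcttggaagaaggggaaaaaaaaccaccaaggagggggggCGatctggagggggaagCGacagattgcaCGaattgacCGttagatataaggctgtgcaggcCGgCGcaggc
The printed stretches hold 16 CpGs at Isl2, 40 at Barx1, 24 at Dlx2, 26 at Six2 and 14 at Otx2. Over whole windows the ratio of observed to expected CpG was 0.68 at Isl2, 0.94 at Barx1, 0.90 at Dlx2 and 1.13 at Six2, and ranged from 0.46 to 0.89 over the 4 Otx2 windows. A ratio of at least 0.6 was found in 25 of the 38 windows of the homeobox genes (65.8%), against 35.8% of 32851 windows of all genes. The share was 75% over 8 windows of members that rose in knockdown ES cells and 60% over 20 windows of the other members kept, so both were above the share of all genes. Among members that rose, the windows of Nkx2-3 (0.56) and Tlx1 (0.59), not printed here, lay below 0.6. Among the other homeobox genes outside the Hox clusters it was 68% of 50 windows, and in the Hox clusters 50% of 24. The letters TAATTA, a core that many homeodomains bind and that reads the same on both strands, stood in 4 of the 38 windows (10.5%; 5.29% of all windows). These were 2 windows of Otx2, the printed stretch among them with 3 copies, and 1 each of Emx2 and Msx2, and in the 8 windows of members that rose in knockdown ES cells these letters were not found. The array probes for the 5 genes lie at chr9:55393925-55393984 (Isl2), chr13:48761442-48761501 (Barx1), chr2:71381553-71381612 (Dlx2), chr17:86083634-86083693 (Six2) and chr14:49277855-49277914 (Otx2) in build mm9, and their place within the transcript was not analysed here.

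In ES cells, Cbx7 depletion was accompanied by higher signal of many of these genes at low levels. Of the 35 genes, 13 rose, 3 fell and 19 did not pass the test, where 22% of all genes tested rose and 16.5% fell. The median change of the 35 was 0.41, against 0.04 over all genes, and 28 of the 35 changes were above 0. Control and knockdown arrays did not overlap for 20 of the 35, where 49.6% of all genes had groups that did not overlap. Tlx3 entered the test through knockdown ES cells alone, and over the 30 genes above background on at least 3 arrays of both groups 12 rose and 3 fell. The other homeobox genes outside the Hox clusters had 18 higher and 3 lower of 56, and the Hox clusters 20 higher and 2 lower of 37. In RNA of whole cultures, a change in the number of cells that express a gene and a change in RNA per cell cannot be told apart. Surface ectoderm markers had sums of 11.8 to 11.9 in control and 14.8 to 16.0 in knockdown ES cells, with 2 of 6 higher, and neural markers 4.21 to 4.72 and 4.54 to 4.79, with 3 higher and 1 lower of 7. Primitive streak and mesoderm markers had sums of 1.62 to 2.58 and 1.62 to 2.26, with 3 of 6 lower (Eomes at -1.13, Pdgfra and Tbx6). Pluripotency markers had sums of 324.7 to 336.2 and 297.7 to 360.2, with 1 higher and 3 lower of 9. The part of these cell types in the result was not tested.

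**Figure D1:**
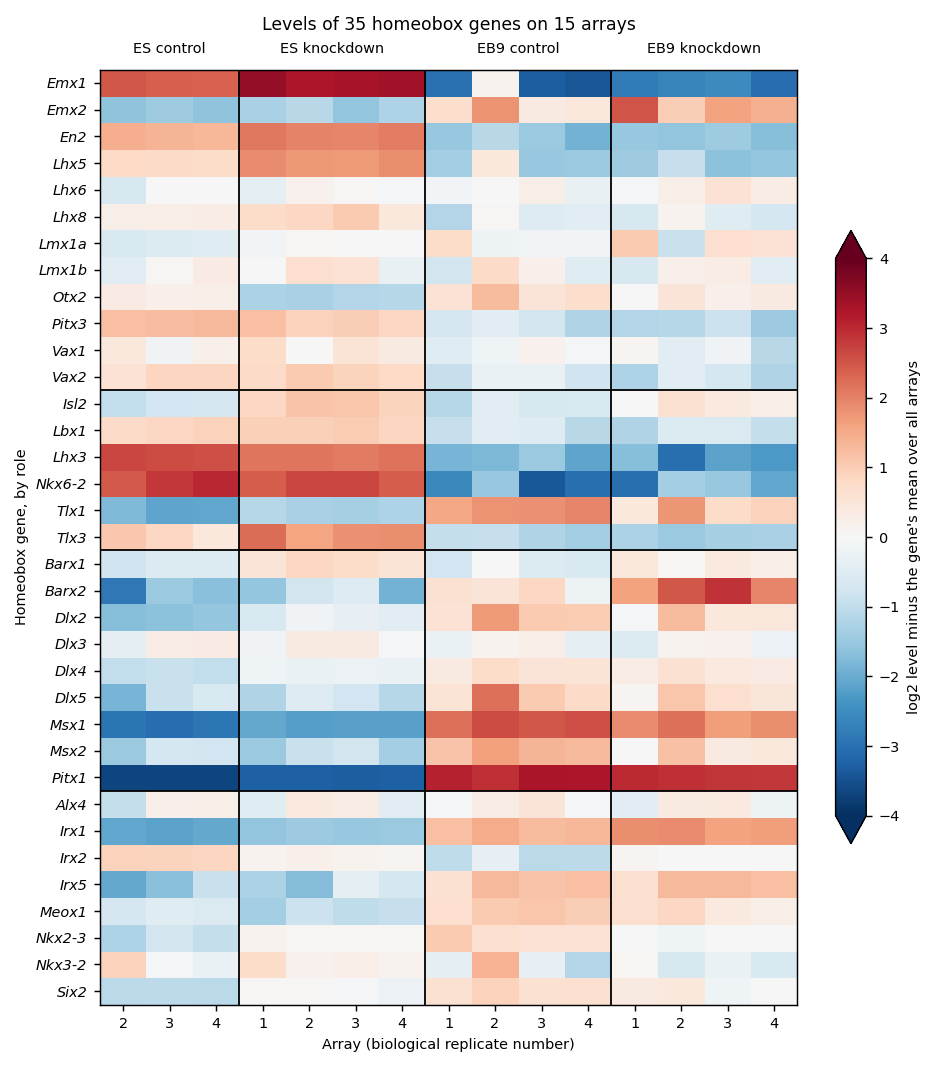
Level of each of the 35 homeobox genes (vertical, by role: brain, spinal cord and sensory neurons, pharyngeal arch and ectoderm, mesoderm and limb) on each of the 15 arrays (horizontal, by group), as the log2 level minus the gene's mean over all arrays. Colours reach their limit at 4 and -4; Pitx1 and Msx1 are high on all 8 EB9 arrays, Emx1, Lhx3 and Nkx6-2 on all 7 ES arrays, and EB9 control 2 stands apart from the other EB9 controls for Emx1 and Lhx5.

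The pharyngeal arch and ectoderm factors made up 5 of the 13 genes that rose in knockdown ES cells, and the other 4 of the 9 tested did not pass. Barx1, a homeobox gene of the stomach mesenchyme and of molar teeth, had levels of -4.69, -4.45 and -4.43 in control ES cells and of -3.37, -3.07, -3.14 and -3.34 in knockdown ES cells. Every knockdown array lay above every control array. Its change was 1.29 (SE 0.16, adjusted p = 4.15e-05), a rise of 2.44-fold.

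Dlx2, which patterns the branchial arches and directs the birth of forebrain interneurons, had levels of -5.26, -5.18 and -5.09 in control and of -4.17, -3.70, -3.89 and -4.01 in knockdown ES cells. The groups did not overlap, and Dlx2 rose by 1.24 (SE 0.28, adjusted p = 0.00394). Dlx4, a family member known from the placenta and arches, moved from -2.78, -2.69 and -2.80 to -1.98, -2.06, -2.03 and -2.06, a rise of 0.72 (SE 0.09, adjusted p = 3.63e-05). Dlx3, which neighbours Dlx4 on chromosome 11 and acts in skin and placenta, had a change of 0.05 (SE 0.24, adjusted p = 0.904). Dlx5 was not well above background on any ES array.

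Msx1, a repressor active in tooth, palate and limb buds, rose by 0.81 (SE 0.12, adjusted p = 1.66e-04), and Pitx1, a hindlimb and pituitary factor, by 0.41 (SE 0.07, adjusted p = 5.58e-04). Msx2, the close relative of Msx1, had a change of -0.13 (adjusted p = 0.776). Barx2, a relative of Barx1 found in muscle and epithelia, had levels of -4.76, -3.39 and -3.58 in control and -3.47, -2.63, -2.42 and -3.79 in knockdown ES cells. These overlapped, and its change of 0.83 did not pass (adjusted p = 0.149). With the slide as a block it was 1.02 (SE 0.23, adjusted p = 0.00521) and passed.

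Among the 6 spinal cord and sensory neuron factors tested, Isl2, Tlx3 and Tlx1 rose and 3 did not pass. Isl2, a LIM homeobox gene of motor neurons and of retinal ganglion cells, had levels of -3.69, -3.46 and -3.36 in control and -1.88, -1.56, -1.58 and -1.81 in knockdown ES cells. Every knockdown array exceeded every control array by more than 1 unit. The change of 1.79 (SE 0.17, adjusted p = 5.46e-06), or 3.47-fold, was the largest among the 35 genes in this comparison.

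Tlx3, a selector of glutamatergic sensory neurons, was near the detection limit, and the software placed it above background on 1 of the 3 control ES arrays and on all 4 knockdown ES arrays. It read -6.68, -6.93 and -7.33 in control and -5.50, -6.18, -5.91 and -5.90 in knockdown ES cells, a rise of 1.11 (SE 0.17, adjusted p = 2.52e-04). Tlx3 entered the test through knockdown ES cells alone, so the filter favoured a rise there. The size of that rise is not well measured, and it ranged from 0.36 to 1.25 over the alternatives. Tlx1, required to form the spleen and also used in sensory neurons, read -3.58, -3.94 and -3.90 against -2.97, -3.11, -3.15 and -3.05 and rose by 0.74 (SE 0.23, adjusted p = 0.0246). Neither gene had overlapping groups. Lhx3, Nkx6-2 and Lbx1, which act in motor neurons, oligodendrocytes and dorsal interneurons, did not pass, at -0.48, -0.22 and 0.11.

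The mesoderm, limb and skeleton factors moved both ways, with 3 of 8 higher and 2 lower. Nkx2-3, a gene of spleen and gut mesenchyme, read -5.15, -4.66 and -4.87 in control and -3.77, -3.87, -3.82 and -3.86 in knockdown ES cells. The knockdown arrays lay close together and above all controls, and the change was 1.06 (SE 0.12, adjusted p = 2.29e-05). Six2, which maintains nephron progenitors in the kidney, read -3.85, -3.83 and -3.88 against -2.74, -2.73, -2.82 and -3.03, with a change of 1.02 (SE 0.14, adjusted p = 7.36e-05). A further Six2 probe also passed as higher (adjusted p = 9.53e-05). It was well above background on no control ES array and on only 1 knockdown ES array, so no size is given.

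The Iroquois genes Irx1 and Irx2, neighbours on chromosome 13 that pattern heart, lung and neural plate, moved in opposite directions. Irx1 read -3.18, -3.23 and -3.12 in control and -2.67, -2.54, -2.60 and -2.58 in knockdown ES cells and rose by 0.58 (SE 0.08, adjusted p = 1.23e-04). Irx2 read -0.95, -0.99 and -1.02 against -1.73, -1.67, -1.75 and -1.77, a change of -0.74 (SE 0.14, adjusted p = 0.00106). Both pairs of groups were apart. The further Irx2 probe gave -0.37 (adjusted p = 0.411), and with the mean of both probes Irx2 did not pass (-0.56, adjusted p = 0.0633). Meox1, a somite gene, changed by -0.46 (SE 0.16, adjusted p = 0.0324), a call lost under 9 of 27 alternatives. Leaving out ES knockdown 1 or 3 or ES control 3 or 4 ended it, with adjusted p of 0.0893, 0.0553, 0.109 and 0.0820.

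The brain factors had 2 of 12 higher and 1 lower. Otx2, which specifies forebrain and midbrain and is also active in the epiblast, read 1.04, 0.89 and 0.93 in control and -0.58, -0.61, -0.48 and -0.45 in knockdown ES cells. The control arrays lay above the 75th percentile and the knockdown arrays below it. The change was -1.48 (SE 0.16, adjusted p = 1.21e-05), the largest fall among the 35 genes and opposite in direction to the median of the set.

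En2, a gene of the midbrain-hindbrain boundary, rose by 0.65 (SE 0.14, adjusted p = 0.00220). Lhx5, a LIM homeobox gene of the forebrain, read -3.09, -3.11 and -3.15 in control and -2.003, -2.16, -2.17 and -2.03 in knockdown ES cells, which did not overlap. Its change of 1.02 (SE 0.37) passed narrowly, at an adjusted p of 0.0453. The call was lost when any 1 of the 7 ES arrays or EB9 knockdown 1, 3 or 4 was left out, with adjusted p from 0.0543 to 0.107. Over all 15 fits that left out 1 array, the adjusted p of Lhx5 ranged from 8.59e-05 to 0.107. Emx1, a gene of the cortex, read -3.16, -3.22 and -3.28 against -2.12, -2.38, -2.32 and -2.27 but did not pass (0.95, adjusted p = 0.279), since the fit shares 1 estimate of the spread with the EB9 controls. Without EB9 control 2 the same change of 0.95 had an adjusted p of 1.06e-04. Lmx1a, of the midbrain floor plate, also did not pass although its groups were apart (0.55, adjusted p = 0.262), and it passed without EB9 knockdown 2 (adjusted p = 0.0420), as did Lhx3 (-0.48, adjusted p = 0.0226).

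**Figure D2:**
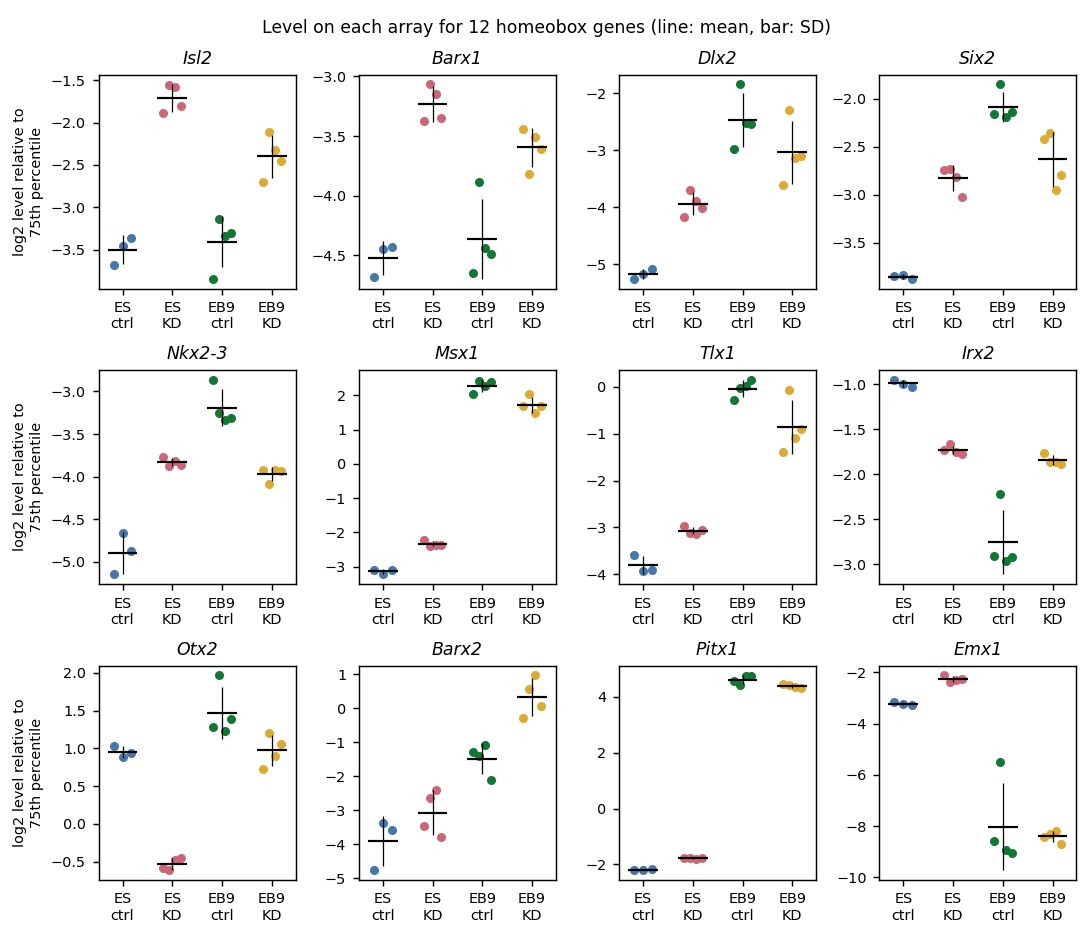
Level of 12 homeobox genes on every array (points), with the group mean (horizontal line) and SD (vertical bar); each panel has its own vertical axis, in log2 units relative to the array's 75th percentile. Isl2 and Barx1 are higher in knockdown than in control at both stages, Six2 and Nkx2-3 are higher in knockdown ES cells and lower in knockdown EB9, and Emx1 shows EB9 control 2 at -5.50 above the other EB9 controls.

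In EB9, the knockdown was accompanied by fewer calls, and more of them were falls than rises. Of the 35 genes, 5 rose, 7 fell and 23 did not pass, where 7.96% of all genes rose and 7.2% fell. The median change was -0.23, against -0.01 over all genes, and 11 of 35 changes were above 0. The arrays of both groups did not overlap for 8 of the 35, beside 15.7% of all genes. With the slide as a block 5 genes rose and 11 fell, against 13.5% and 13.2% of all genes. The 4 genes that this fit added were Dlx2 (-0.57, adjusted p = 0.0365), Meox1 (-0.42, adjusted p = 0.0345), Pitx3 (-0.40, adjusted p = 0.0210) and Vax2 (-0.32, adjusted p = 0.0410), all lower. The count of 7 lower genes was 3 without EB9 knockdown 3 or without EB9 knockdown 4, 4 without EB9 control 3 or EB9 control 4, and 1 when the 8 EB9 arrays were fitted alone. Marker sums overlapped between control and knockdown EB9 for fibroblasts (101.4 to 148.6 and 106.9 to 164.8) and blood and endothelium (123.2 to 236.9 and 110.6 to 213.2). Those of primitive streak and mesoderm had sums of 6.37 to 7.11 and 5.98 to 7.06, but 3 of 6 fell: T by 2.79, Mesp1 by 1.67 and Eomes by 0.89 on the log2 scale. Pluripotency markers had sums of 17.1 to 22.2 and 20.6 to 24.8, with 3 of 9 higher. The part of cell composition in the changes was not tested.

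Barx2 had the largest rise in EB9. It read -1.29, -1.41, -1.09 and -2.13 in control and -0.29, 0.57, 0.97 and 0.05 in knockdown EB9. Every knockdown array lay above every control array, and the change was 1.81 (SE 0.40, adjusted p = 0.00981), or 3.50-fold. A further Barx2 probe was not well above background on any array, with means of -7.61 in control and -7.34 in knockdown EB9. The rise thus rests on the brighter Barx2 probe alone. Barx1 rose as well, from -4.65, -3.88, -4.44 and -4.49 to -3.44, -3.81, -3.51 and -3.61. The change of 0.77 (SE 0.15, adjusted p = 0.00473) became 0.93 (adjusted p = 3.53e-04) without EB9 control 2, whose level of -3.88 was the nearest to the knockdown arrays.

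Isl2 read -3.85, -3.14, -3.33 and -3.30 in control and -2.71, -2.10, -2.33 and -2.45 in knockdown EB9. It was higher on all 4 slides, by 0.85 to 1.14, and its change was 1.01 (SE 0.16, adjusted p = 0.00150). Irx1 rose by 0.44 (SE 0.08, adjusted p = 0.00236), from levels of 0.10 to 0.39 to levels of 0.53 to 0.81. Irx2, which had fallen in knockdown ES cells, read -2.91, -2.22, -2.97 and -2.92 in control and -1.76, -1.86, -1.86 and -1.88 in knockdown EB9. The knockdown arrays were tightly grouped above all controls, and Irx2 rose by 0.91 (SE 0.13, adjusted p = 8.48e-04). The further Irx2 probe gave 0.70 (adjusted p = 0.148).

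The 7 genes that fell included both Msx genes. Msx1 read 2.03, 2.42, 2.29 and 2.38 in control and 1.69, 2.03, 1.47 and 1.68 in knockdown EB9, so that EB9 knockdown 2 reached the lowest control. Its change was -0.56 (SE 0.11, adjusted p = 0.00555), which did not pass when EB9 arrays were fitted alone (adjusted p = 0.0581). Msx2, which acts in skull, teeth and limb buds, read 1.98, 2.48, 2.19 and 2.12 against 0.83, 2.00, 1.19 and 1.24, and EB9 knockdown 2 again overlapped the controls. The change of -0.88 (SE 0.26, adjusted p = 0.0368) lost its call without any of EB9 knockdown 1, 3 and 4 and EB9 control 2, 3 and 4, with adjusted p from 0.0712 to 0.0983.

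Tlx1 read -0.28, -0.04, 0.01 and 0.15 in control and -1.39, -0.06, -1.09 and -0.89 in knockdown EB9. EB9 knockdown 2 lay among the controls and the other 3 below them. The change of -0.82 (SE 0.22, adjusted p = 0.0238) was -1.08 (adjusted p = 2.61e-04) without EB9 knockdown 2, and was lost without EB9 knockdown 1, 3 or 4 or EB9 control 3 or 4, with adjusted p from 0.0577 to 0.0764.

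Nkx2-3 fell with no overlap, from -2.86, -3.25, -3.33 and -3.32 to -3.92, -4.09, -3.92 and -3.93. Its change was -0.77 (SE 0.11, adjusted p = 9.25e-04). Six2 read -2.16, -1.85, -2.19 and -2.14 against -2.42, -2.36, -2.95 and -2.79, which did not overlap, and changed by -0.55 (SE 0.13, adjusted p = 0.0126). The further Six2 probe gave -0.43 (adjusted p = 0.204), and the call was lost when EB9 arrays were fitted alone (adjusted p = 0.0803).

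Otx2 was lower in knockdown EB9 too, at 0.73, 1.21, 0.90 and 1.06 against 1.28, 1.97, 1.22 and 1.39. The change of -0.49 (SE 0.15, adjusted p = 0.0384) was -0.32 (adjusted p = 0.0480) without EB9 control 2. It was lost under 11 of 27 alternatives, 9 of which left out 1 array (adjusted p from 0.0503 to 0.101): ES knockdown 1, 3 or 4, ES control 3 or 4, EB9 knockdown 1, 3 or 4, or EB9 control 4. Pitx1 changed by -0.23 (SE 0.07, adjusted p = 0.0343), with EB9 control 2 at 4.42 within the knockdown range of 4.33 to 4.46.

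Some members passed or failed in EB9 according to 1 array. Without EB9 control 2, Emx1 changed from -0.38 to 0.46 (adjusted p = 0.0329), but neither group was then well above background, so this is no measured difference. Emx2, which acts in cortex and urogenital tract, was detected above background on 1 of the 4 EB9 controls and on all 4 EB9 knockdown arrays. It entered the test through knockdown EB9 alone, so the filter favoured a rise there, and its size against controls near background is not well measured. Its change went from 0.80 (adjusted p = 0.124) to 1.12 (adjusted p = 0.0190) without EB9 control 2, and to 1.01 (adjusted p = 0.0487) without EB9 knockdown 2. Without EB9 knockdown 2, Dlx2 changed by -0.82 (adjusted p = 0.0227), Lmx1a by 0.69 (adjusted p = 0.0272) and Meox1 by -0.52 (adjusted p = 0.0207).

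Set side by side, the changes in ES cells and in EB9 rest on different arrays. Of the 35 genes, 10 passed in both, 6 in ES cells only, 2 in EB9 only and 17 in neither. Of the 10, Isl2, Barx1 and Irx1 rose at both stages and Otx2 fell at both. The other 6 moved in opposite directions: Nkx2-3, Six2, Tlx1, Msx1 and Pitx1 rose in ES cells and fell in EB9, and Irx2 did the reverse. Over all genes tested, 734 of 1707 that passed in both moved in opposite directions (43.0%).

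**Figure D3:**
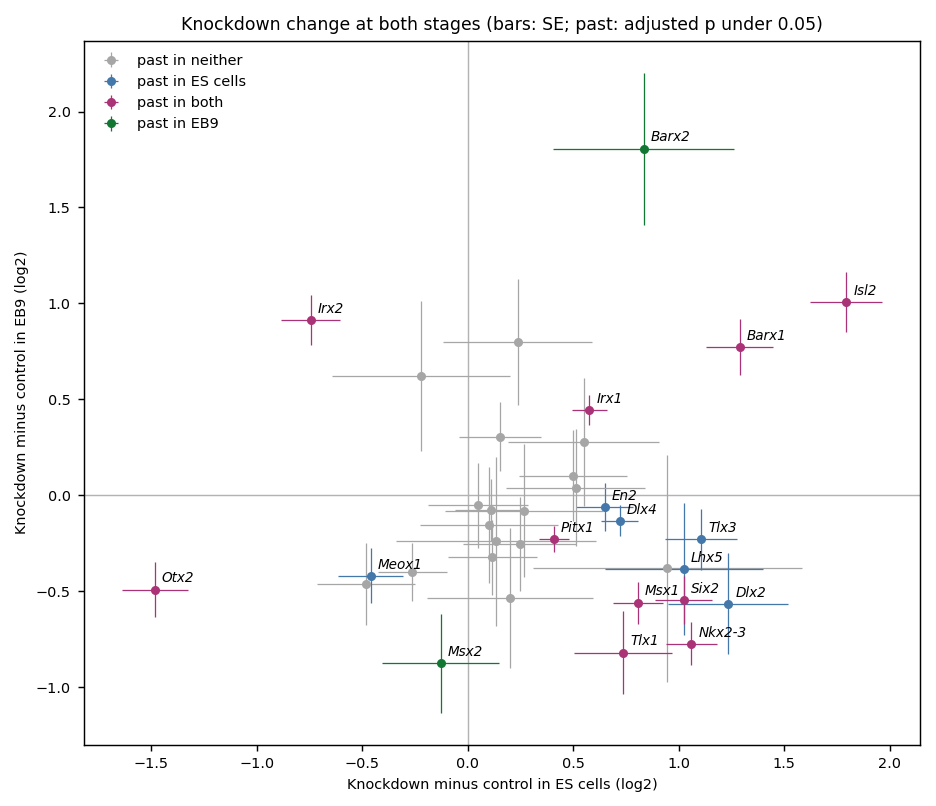
Change on knockdown in ES cells (horizontal) and in EB9 (vertical) for the 35 homeobox genes, in log2 units, with bars of 1 SE; colours mark in which stage a gene was called (adjusted p under 0.05). Isl2 (1.79 and 1.01) and Barx1 (1.29 and 0.77) lie at the upper right, Nkx2-3, Six2, Tlx1, Msx1 and Pitx1 at the lower right, and Irx2 at the upper left.

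The difference between the stages was also tested directly, as the knockdown effect in EB9 minus that in ES cells. It passed above 0 for 2 of 35 genes and below 0 for 10, where 12.7% and 17% of all genes passed in those directions. By sign alone 8 of the 35 differences were above 0, and the median was -0.44 against -0.04 over all genes. The largest differences were those of Nkx2-3 at -1.84 (SE 0.17, adjusted p = 8.85e-06) and Dlx2 at -1.80 (SE 0.39, adjusted p = 0.00365). Irx2 differed by 1.66 (SE 0.19, adjusted p = 5.16e-05), Six2 by -1.57 (SE 0.19, adjusted p = 6.02e-05), Tlx1 by -1.56 (SE 0.32, adjusted p = 0.00272) and Msx1 by -1.37 (SE 0.16, adjusted p = 6.08e-05). The further Irx2 probe gave 1.07 and did not pass (adjusted p = 0.0903). Dlx4, Isl2, En2 and Pitx1 also passed, from -0.85 to -0.64, as did Otx2, at 0.99. Tlx3 is the tenth gene counted below 0, but its EB9 levels were not well above background in either group, so its knockdown effect in EB9 was not measured. For Isl2 the rise was smaller in EB9 than in ES cells, and for Otx2 the fall was smaller. With the slide as a block 2 genes passed above 0 and 14 below, where 17.5% and 23.5% of all genes did, and the 4 added were Dlx5, Lhx5, Msx2 and Vax2. Barx1 did not pass this test (-0.52, adjusted p = 0.0943), nor did Irx1 (-0.13, adjusted p = 0.430) or Barx2 (0.97, adjusted p = 0.246). Lhx5 (-1.41, adjusted p = 0.0537) passed without EB9 control 2 (-0.94, adjusted p = 0.00282) and without EB9 knockdown 2 (-1.56, adjusted p = 0.0402). Msx2 (-0.75, adjusted p = 0.163) passed without EB9 knockdown 2 (-0.98, adjusted p = 0.0365).

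From control ES cells to control EB9, these genes moved in both directions, and about as large a share of them changed as of all genes. The test was not passed by 9 of the 35, beside 5347 of all 21184 genes. Of the 35 genes, 15 rose and 11 fell, where 33.3% of all genes rose and 41.5% fell, and the median was 0.16 against -0.14. Over the 25 genes above background on at least 3 arrays of both groups, 12 rose and 6 fell. The pharyngeal arch and ectoderm factors had 7 higher of 9 and 2 not past the test, with a median change of 2.35. The mesoderm and limb factors had 5 higher and 1 lower of 8, with a median of 1.61. The brain factors had 2 higher and 6 lower of 12 (median -0.54), a share of lower genes near that of all genes, and the spinal cord and sensory factors 1 higher and 4 lower of 6 (median -1.73). These role counts include genes that passed the filter at 1 stage alone, so that the filter favoured the direction of their change. Among genes called, Lhx3, Nkx6-2, Tlx3, Emx1 and Lhx8 passed it through ES cells alone, and Dlx5, Irx5 and Emx2 through EB9 alone. Neural markers were 1 higher and 4 lower of 7, with sums of 4.21 to 4.72 in control ES cells and 2.39 to 2.79 in control EB9.

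Pitx1 showed the largest change. It read -2.20, -2.19 and -2.17 in control ES cells and 4.57, 4.42, 4.75 and 4.73 in control EB9, 112-fold higher (6.80, SE 0.07, adjusted p = 9.65e-16). Msx1, from -3.11, -3.23 and -3.09 in control ES cells to the EB9 levels above, rose 42.8-fold (5.42, SE 0.12, adjusted p = 1.47e-13). Both changes are far wider than the spread between arrays. Tlx1 rose by 3.77 (SE 0.23, adjusted p = 4.70e-09), Irx1 by 3.40 (SE 0.08, adjusted p = 3.59e-13) and Dlx2 by 2.71 (SE 0.28, adjusted p = 1.13e-06). Barx2 rose by 2.43 (SE 0.43) and Msx2 by 2.35 (SE 0.28).

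For 3 genes the ES level was not well above background on any array, so the fold is a lower bound against the dimmest signal that the software still placed well above background. Irx5, an Iroquois gene of heart and retina, was at least 2.58-fold higher in control EB9 (adjusted p = 6.98e-06). Dlx5, a gene of branchial arches and bone, was at least 3.27-fold higher (adjusted p = 1.47e-04). Emx2 was at least 1.496-fold higher (adjusted p = 3.47e-05) and was well above background on 1 of 4 control EB9 arrays.

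Several genes fell to the background in EB9. Nkx6-2, an oligodendrocyte and neural tube gene, read -2.33, -1.93 and -1.77 in control ES cells and -7.35, -6.30, -8.15 and -7.78 in control EB9, a change of -5.39 (SE 0.42, adjusted p = 5.39e-08). It was well above background on 1 of those 4 EB9 arrays. Emx1 read -8.60, -5.50, -8.93 and -9.05 in control EB9 and was well above background on 1 of 4 arrays. Its change from ES cells was -4.80 (SE 0.64, adjusted p = 1.20e-05), and -5.64 without EB9 control 2, when no EB9 control was well above background.

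Lhx3, a pituitary and motor neuron gene, read -2.44, -2.51 and -2.53 in control ES cells and was not well above background in EB9, at least 17.6-fold lower (adjusted p = 7.02e-10). En2 fell by 2.87 (SE 0.14) and Pitx3, a gene of lens and dopamine neurons, by 2.01 (SE 0.16) on the log2 scale. Tlx3 fell from a level near the limit to one not well above background (adjusted p = 2.65e-07), and no size is given. The other 5 genes that fell, from -1.77 to -0.79, were Irx2, Lhx5, Lbx1, Vax2 and Lhx8. For Lbx1, a gene of limb muscle precursors and dorsal interneurons, the further probe gave -0.34 (adjusted p = 0.201) against -1.58. Lhx6, an interneuron gene, had probes that differed: the brightest gave 0.16 (adjusted p = 0.470) and the further one 0.96 (adjusted p = 3.69e-05).

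Knockdown cells went from ES cells to EB9 with 13 genes higher, 13 lower and 9 not past the test, where 33.7% of all genes rose and 44.2% fell, and with a median of -0.11 against -0.18. Over the 25 genes above background on at least 3 arrays of both groups, 10 rose and 7 fell. This comparison shares its arrays with both knockdown comparisons above. By role the counts were 7 higher and 1 lower of 9 arch and ectoderm factors, 3 higher of 8 mesoderm and limb factors, 2 higher and 7 lower of 12 brain factors, and 1 higher and 5 lower of 6 spinal cord and sensory factors. The role counts again include the genes that passed the filter at 1 stage alone.

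Pitx1 rose by 6.17 (SE 0.07), Msx1 by 4.05 (SE 0.11), Barx2 by 3.40 (SE 0.40), Irx1 by 3.27 (SE 0.08) and Tlx1 by 2.21 (SE 0.22). Emx2 was at least 2.21-fold higher. Pitx1 reached 71.9-fold in knockdown cells, beside 112-fold in control cells. Emx1 was at least 22.7-fold lower, Lhx3 at least 14.0-fold and Tlx3 at least 1.87-fold, because their EB9 levels were not well above background. Nkx6-2 changed by -4.55 (SE 0.39), En2 by -3.58 (SE 0.13) and Lhx5 by -3.17 (SE 0.35).

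For Nkx2-3, Six2, Irx2 and Isl2 only control or only knockdown cells passed. The test of the difference, which is the same test as that between the stages, passed too, for Irx2 at its brightest probe alone. Nkx2-3 rose by 1.70 from control ES cells to control EB9 and had a change of -0.14 (adjusted p = 0.286) in knockdown cells. Six2 rose by 1.77 and had a change of 0.20 (adjusted p = 0.169). In both genes the knockdown arrays of the 2 stages lay between control ES cells and control EB9. Irx2 fell by 1.77 in control and had a change of -0.11 (adjusted p = 0.458) in knockdown cells, which passed without EB9 control 2 (adjusted p = 0.0347). Isl2 had a change of 0.10 (adjusted p = 0.629) in control cells and of -0.69 (SE 0.16, adjusted p = 0.00130) in knockdown cells. Otx2 rose by 0.51 in control and by 1.503 in knockdown cells, starting from the lower level of knockdown ES cells.

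**Figure D4:**
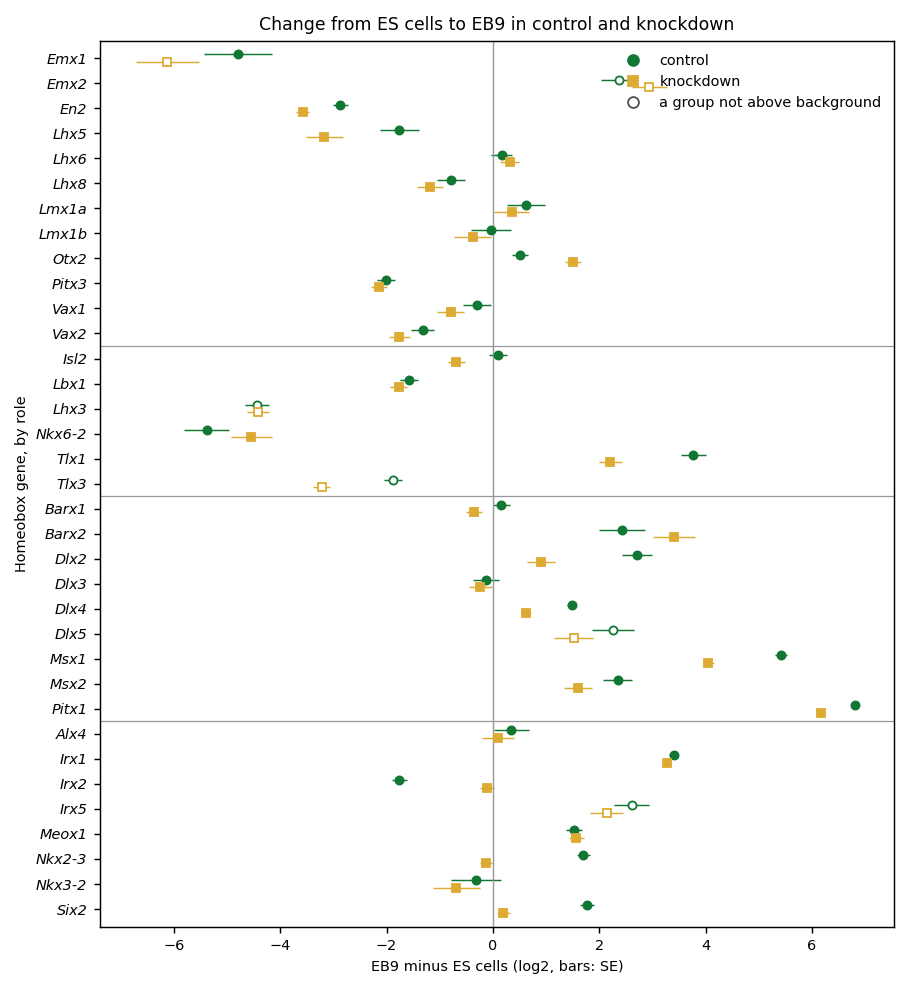
Change from ES cells to EB9 (horizontal, log2 units, bars of 1 SE) for the 35 homeobox genes by role, in control cells (green circles) and knockdown cells (yellow squares); open symbols mark genes not well above background in 1 of the groups compared. Pitx1 (6.80 and 6.17) and Msx1 (5.42 and 4.05) lie farthest right, and Nkx2-3, Six2 and Irx2 lie near 0 in knockdown cells only.

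Members whose brightest probe had no call in any comparison were Alx4, Dlx3, Lhx6, Lmx1a, Lmx1b and Nkx3-2. Alx4, a limb and craniofacial gene, ranged from -5.12 to -3.67 over the 15 arrays, and Dlx3 from -1.12 to -0.21. For Lmx1b, of dorsal limb and serotonin neurons, the 4 EB9 controls alone spanned the whole range of the 15 arrays, from -5.32 to -3.81. The same held for Nkx3-2, of the axial skeleton, from -7.38 to -4.82 (EB9 control 2), and without that array Nkx3-2 was lower in EB9 in control (-0.82, adjusted p = 0.0374) and knockdown cells (-0.69, adjusted p = 0.0396). The further Lmx1b probe was lower in EB9 in control (-0.72, adjusted p = 0.0496) and knockdown cells (-0.73, adjusted p = 0.0318). The further Lhx6 probe was lower in knockdown than in control ES cells (-0.49, adjusted p = 0.0170), where the brightest gave 0.15 (adjusted p = 0.597). From knockdown ES cells to knockdown EB9 that further Lhx6 probe rose by 1.10 (adjusted p = 4.25e-06). Without EB9 knockdown 2, Lmx1a was higher in EB9 in control (0.63, adjusted p = 0.0115) and knockdown cells (0.76, adjusted p = 0.00334). Barx1 lost its lower level in knockdown EB9 against knockdown ES cells (-0.36, adjusted p = 0.0384) without the same array (-0.29, adjusted p = 0.111). Alx4 in control cells and Dlx3, Lhx6 and Lmx1b in knockdown cells passed from ES cells to EB9 with the slide as a block. Vax1, a gene of the optic stalk, passed only from ES cells to EB9 in knockdown cells, at -0.80 (SE 0.25, adjusted p = 0.00962), and its further probe gave -0.39 (adjusted p = 0.141). Its relative Vax2, of the ventral retina, was lower in EB9 in both control cells (-1.32) and knockdown cells (-1.77).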

How the data were processed

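Per the file headers, the authors' scans went through Agilent Feature Extraction 10.7.3.1, which gives the intensity of every feature after background correction within its array, with no scaling across arrays. Their normalised values were deposited too, as log2; set against the scans, these match normexp correction with an offset of 50 and quantile normalisation, within 0.0153. The labelling used 500 ng of RNA, per the labels.

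Here each array's 75th percentile of the processed signal over non-control features was the unit of a level, on a log2 scale. Outlier features were left out (109 to 179 per array), repeated spots were averaged to 39429 probes, and 27250 probes well above background on at least 3 arrays of a group were kept. A gene is represented by its brightest kept probe. Array coordinates are mm9, per the scanner files. No feature was saturated, and 15 arrays limit the precision. The test was that of limma 3.58.1 (R 4.3.3), fitted over all arrays with 1 mean per group, two-sided, with Benjamini-Hochberg adjustment over all genes; Cbx7 and the further probes of a gene were adjusted over all kept probes. The script was tested on simulated data. An SE is the moderated SE.

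Members and gene lists were chosen with earlier results of these data known. In each comparison the first 6 members higher and lower by size among those past the threshold were described, plus up to 6 whose knockdown effect differed between stages, relatives of 1 family, and up to 2 other homeobox genes per direction, of which some are not reported here. Gene lists were counted, not tested.

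Deviations from group means followed the slide more closely than the replicate number. Across genes they correlated at a median of 0.43 (0.21 to 0.63) for arrays of the same slide. For arrays of the same number the median was 0.34 (-0.59 to 0.55), with 21 pairs each. For pairs that shared neither it was -0.31 (-0.56 to 0.49). Slides 1, 2 and 3 held ES controls 2, 3 and 4, while in the other groups both numbers match, so the slide is the block given beside results. Alternatives changed the background correction, scaling, filter, probe rule, block, arrays fitted, array weights and intensity trend, and left out each array in turn.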

Additional observations from a re-analysis of the deposited data

Results flagged for a closer look

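In some of the 69 groups of 4 arrays tested, each being 1 gene in 1 group, 1 array lay far from the others. These groups belong to 5 genes, and chance marks about 1 in 20 groups by this measure. EB9 control 2 stood apart for Emx1 at -5.50 (the others from -9.05 to -8.60), Lhx5 at -3.47 (-5.41 to -5.25), Irx2 at -2.22 (-2.97 to -2.91) and Six2 at -1.85 (-2.19 to -2.14). Nkx2-3 stood apart on EB9 control 1 at -2.86 (-3.33 to -3.25) and on EB9 knockdown 2 at -4.09 (-3.93 to -3.92). Irx2 stood apart on EB9 knockdown 1 at -1.76 (-1.88 to -1.86), a gap of little size.

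The knockdown effect differed between EB9 and ES cells, by the test of the difference itself, for 12 of the 35 genes. Over all genes tested, 12.7% passed above 0 and 17% below, so the total is not far from the share of all genes. As EB9 minus ES cells it was -1.84 for Nkx2-3, -1.80 for Dlx2, -1.57 for Six2, -1.56 for Tlx1, -1.37 for Msx1 and -1.33 for Tlx3, whose EB9 levels were not well above background in either group, so that this last value is not a measured difference. It was -0.85 for Dlx4, -0.79 for Isl2, -0.71 for En2 and -0.64 for Pitx1. It was 1.66 for Irx2 and 0.99 for Otx2. At the further Irx2 probe it was 1.07 and did not pass (adjusted p = 0.0903).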

How the results depend on the processing

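Over 27 alternatives, the 50 named calls of members kept their direction in every one; 1295 of the results kept their call and 49 lost it, all of these in the knockdown comparisons. Of the counts of members, that of genes lower in knockdown EB9 moved most: 7 as reported, 11 with the slide as a block, 1 when EB9 arrays were fitted alone, and 3 to 9 when each array was left out in turn. The count of genes past the test with a difference above 0 between stages went from 2 to 4 with array weights. With the number of the labels as a block (the replicate block) the counts in ES cells were 13 higher and 2 lower, in EB9 5 and 8, and for the difference 2 and 11, none over 1.5 times the reported count. Of named calls, that block ended 1, the fall of Meox1 in knockdown ES cells (-0.41, adjusted p = 0.0585). Chosen after seeing the data, the slide as a block with each array left out in turn gave 4 to 12 genes lower and 5 to 8 higher in knockdown EB9. It gave 11 to 17 past the test with a difference below 0. A call that also asks for a change of at least 2-fold, likewise chosen after seeing the data, gave 7 higher and 1 lower in ES cells, 2 and 0 in EB9 (7 lower without that limit), and 1 and 6 for the difference. The difference between stages needs all groups and was not run on the arrays compared alone. Why counts moved was not tested. Signal near background limits Tlx3, Irx5, Emx2, Dlx5, Lhx3, Nkx6-2, Emx1, Vax1, Lhx8 and Nkx3-2.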

Other observations

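Other homeobox genes outside the Hox clusters, 56 of 65 tested, had 4 higher and 10 lower in knockdown EB9, where 7.96% of all genes were higher and 7.2% lower. From ES cells to EB9 they had 20 higher and 23 lower in control cells (33.3% and 41.5% of all genes) and 17 and 30 in knockdown cells (33.7% and 44.2%). In knockdown ES cells Hlx, a gene of gut and liver mesenchyme, was at least 2.39-fold higher, and Esx1, a placental gene, rose by 1.26 (SE 0.18). Six5 and Dbx2 fell there by 1.07 and 0.97 on the log2 scale. In knockdown EB9 Isx, an intestinal gene, rose by 0.93. Hmx2, an inner ear gene, was at least 1.87-fold lower there and Cdx1, a posterior gene, changed by -1.16. From ES cells to EB9 Cdx1 changed by -4.88 in control and by -6.63 in knockdown cells. Prrx1, a limb mesenchyme gene, was at least 19.4-fold higher in knockdown EB9 than in knockdown ES cells. The knockdown effect in EB9 minus that in ES cells was 1.22 for Six5. Other values against a probe not well above background in a group are left out or given as bounds.

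Of the 29 Polycomb subunits tested, 2 rose and 6 fell in knockdown ES cells, where 22% of all genes rose and 16.5% fell, and 3 rose and 2 fell in knockdown EB9. Of 37 Hox cluster genes 8 were lower in knockdown EB9, beside 7.2% of all genes. Members lay next to another member in 6 places of the RefSeq gene order, counting protein-coding genes: Dlx1 and Dlx2, Dlx3 and Dlx4, Dlx5 and Dlx6, Irx1 and Irx2, Six2 and Six3, and Tlx1 and Lbx1. Of the 3 pairs with both genes measured, only 1 gene of Dlx3 and Dlx4 and of Tlx1 and Lbx1 passed in knockdown ES cells, and Irx1 and Irx2 passed there in opposite directions.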
